A study of Mus musculus with 8 samples.

Results

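The SERCA pumps, their small regulators and the ryanodine receptors were followed as 8 genes of the 31053 in the count table of a bulk RNA-seq series on mouse brown adipose tissue (BAT). They were listed by name, with earlier results of these data known: the pumps Atp2a1, Atp2a2 and Atp2a3, the regulators Sln and Pln, and the release channels Ryr1, Ryr2 and Ryr3. The series holds 4 libraries labelled WT and 4 labelled Cd36KO, all of strain C57BL6/J, from Brown Adipose Tissue of mice given as 8-weeks old. The labels also name the cell type as Stromal Vascular Fraction, and they give the deletion as Cd36KO with no driver.

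CD36 takes up lipids, and its loss was compared with WT to ask how it changes the BAT transcriptome. The study made a myeloid-restricted deletion (CD36 flox/flox with Csf1r-Cre) as well as a germline knockout, and attributes its BAT transcriptome to the myeloid-restricted mice. Its legends give those mice the age on the labels, and its methods a later one. In the count table, 1 Cd36KO column has no number in its name, and its library is called unnumbered here. The methods describe all mice as male, whereas the 8 libraries held 772 to 1588 counts of Xist and at most 3 of the Y-linked gene Ddx3y.

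Total counts per library ran from 2679785 to 4097953. The Cd36 transcript was still present in the libraries labelled Cd36KO, at 1926 to 2384 normalized counts against 2412 to 3505 in WT, a log2 change of -0.48 ± 0.16 (SE; adjusted p = 0.0602 in DESeq2 and 0.191 in edgeR). The Cd36 groups did not overlap, and the change passed the DESeq2 threshold in 3 alternatives: TMM size factors (adjusted p = 0.0494), a score of muscle RNA in the fit (-0.66, adjusted p = 0.0397) and leaving out WT replicate 4 (adjusted p = 0.00656). It missed the threshold in the other fits run. Adipocyte transcripts were abundant despite the cell type label: the summed normalized count of 12 brown adipocyte markers lay between 39790 and 59082 in every library. Beside them stood skeletal muscle transcripts that differed widely from library to library. In bulk tissue, fewer cells of a type and less RNA per cell cannot be told apart.

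SERCA pumps use ATP to move calcium from the cytosol into the endoplasmic or sarcoplasmic reticulum, and ryanodine receptors let it out again. Sarcolipin (Sln) and phospholamban (Pln) are small membrane proteins that bind the pumps: phospholamban lowers their affinity for calcium, and sarcolipin can uncouple ATP use from transport, which releases heat. SERCA1 (Atp2a1) and RYR1 are the main isoforms of fast skeletal muscle, RYR2 and phospholamban those of the heart, and SERCA2 (Atp2a2) has a muscle form and a form found in most cells, while SERCA3 (Atp2a3) is known from blood, endothelial and epithelial cells. Calcium cycling through SERCA2 and RYR2 has been described as a source of heat in beige fat.

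On build GRCm38, Atp2a1 (ENSMUSG00000030730) lies at chr7:126445858-126463108 on the minus strand and Ryr1 (ENSMUSG00000030592) at chr7:29003344-29125179, also on the minus strand. Atp2a2 (ENSMUSG00000029467) lies at chr5:122453513-122502225 on the minus strand and Atp2a3 at chr11:72961169-72993044 on the plus strand. Sln lies at chr9:53850164-53854560 (plus), Pln at chr10:53337667-53345987 (plus), Ryr2 at chr13:11553102-12106945 (minus) and Ryr3 at chr2:112631355-113217096 (minus). All are protein-coding, and their counts are sums over exons.

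Promoter sequence is shown for the pump and the channel whose counts followed the muscle transcripts, Atp2a1 and Ryr1, and for Atp2a3, whose counts did not. Each line gives 215 bases, 5′ to 3′ on the gene's own strand, from RefSeq on GRCm38.p6. It begins 250 bases before the RefSeq start, so the bases nearest that start are left out. Capitals mark the E box CANNTG, the letters bound by myogenic factors of the MyoD family among others.
Atp2a1, chr7:126463109-126463323, minus strand: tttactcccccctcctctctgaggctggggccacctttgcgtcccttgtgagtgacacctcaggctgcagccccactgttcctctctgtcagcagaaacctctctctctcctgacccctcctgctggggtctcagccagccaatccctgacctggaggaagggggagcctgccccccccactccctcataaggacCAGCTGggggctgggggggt
Ryr1, chr7:29125187-29125401, minus strand: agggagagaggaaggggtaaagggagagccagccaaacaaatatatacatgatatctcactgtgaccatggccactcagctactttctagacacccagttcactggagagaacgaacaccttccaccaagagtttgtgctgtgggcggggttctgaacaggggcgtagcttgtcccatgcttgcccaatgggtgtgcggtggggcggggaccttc
Atp2a3, chr11:72960919-72961133, plus strand: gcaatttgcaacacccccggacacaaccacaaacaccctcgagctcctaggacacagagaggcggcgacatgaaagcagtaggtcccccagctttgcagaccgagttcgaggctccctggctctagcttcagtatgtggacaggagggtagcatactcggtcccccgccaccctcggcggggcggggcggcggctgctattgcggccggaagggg
The window of Atp2a1 held 1 E box, which reads CAGCTG, and those of Ryr1 and Atp2a3 held 0. Of the windows not printed, for the genes near 0 in most libraries, that of Ryr2 held 2 E boxes and that of Pln held 1. Of 32851 mouse promoters cut to the same stretch, 61.4% held an E box on either strand and 11.1% held CAGCTG, which is one form of it. The CArG box and the MEF2 site were found in none of the 5 windows, against 1.27% and 1.42% of all promoters, and TATAAA was found once, in that of Pln, against 9.75%. A missing match says only that these letters are not in this window.

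Atp2a1, the fast muscle pump, varied widely between libraries of the same genotype. The WT libraries held 4384, 742, 92.9 and 813 normalized counts in replicate order, and the unnumbered Cd36KO library held 521, with 10.4, 8.18 and 128 in Cd36KO replicates 2, 3 and 4. WT replicate 1 thus stood 47.2-fold above WT replicate 3 within the same genotype, and WT replicate 3 lay below 2 of the Cd36KO libraries. The groups overlapped. The WT mean was 1508 ± 1945 and the Cd36KO mean 167 ± 243 (SD, n = 4 each).

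Ryr1, the release channel of skeletal muscle, followed the same split. WT libraries held 843, 128, 25.9 and 86.1 normalized counts, and Cd36KO libraries held 84.7 (unnumbered), 1.15, 5.11 and 67.9. Its highest library was again WT replicate 1, its lowest values were again those of Cd36KO replicates 2 and 3, and the groups overlapped. The highest library exceeded the lowest by 733-fold for Ryr1 and by 536-fold for Atp2a1.

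Atp2a2, the pump found in most cells, was steady by comparison, with a 2.80-fold range. WT libraries held 555, 268, 209 and 331 normalized counts, and Cd36KO libraries held 343 (unnumbered), 198, 278 and 253. WT replicate 1 was highest here too, the other 7 libraries lay close together, and the groups overlapped. Atp2a3, the third pump, was low and even: 21.7, 31.4, 52.9 and 20.8 normalized counts in WT, and 26.7 (unnumbered), 27.6, 24.5 and 32.0 in Cd36KO. Its highest library was WT replicate 3, and WT replicate 1 was among its lowest.

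**Figure D1:**
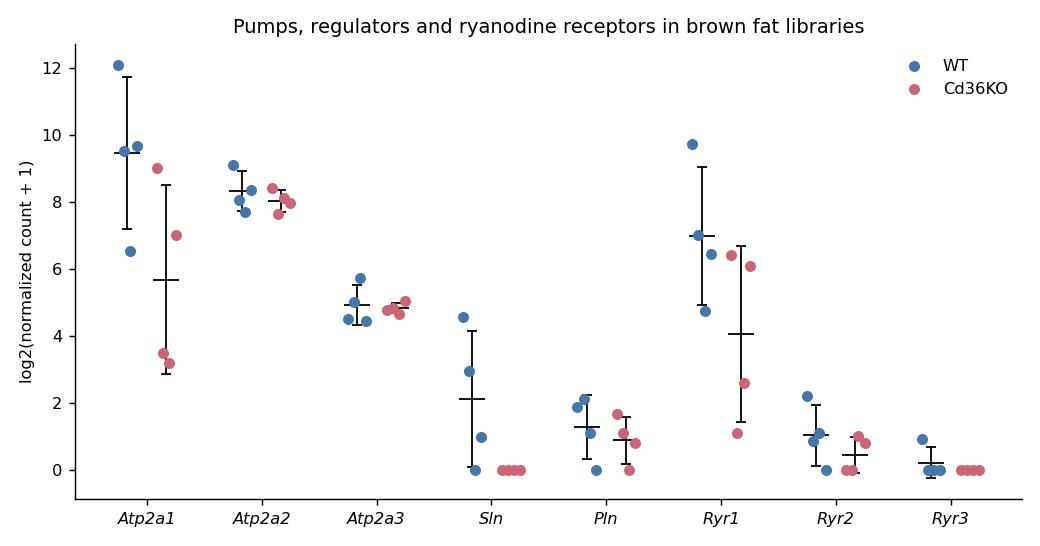
Log2(normalized count + 1) of the 8 genes in each library, with 1 point per library and bars for the mean and SD of each group (n = 4). Atp2a1 and Ryr1 spread over many log2 units within each genotype, Atp2a2 and Atp2a3 stay within a narrow band, and Sln, Pln, Ryr2 and Ryr3 sit at or near 0 in most libraries.

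The remaining 4 genes were at or near 0 in most libraries. Sln was counted 25, 8, 0 and 1 times in the WT libraries and in none of the 12912912 counts of the Cd36KO libraries. That makes 34 counts in WT, or 2.69 CPM (counts scaled to 1000000 in all), against an upper limit of 0.232 CPM in Cd36KO (3 counts over the group). Pooled over the libraries, Sln was thus at least 11.6-fold higher in WT. This bound covers counting error and not the spread between libraries. WT replicate 1 alone held 25 of the 34, and without it the bound was 4.03-fold, from 9 counts. Sln is a skeletal and atrial muscle transcript, and the only 3 libraries with a count of it were the 3 of highest muscle score, described next. Pln had 12 counts over all libraries (8 WT, 4 Cd36KO), Ryr2 had 8 (6 WT, 2 Cd36KO) and Ryr3 had 1. At this depth no difference between genotypes was detectable for Pln, Ryr2 or Ryr3. The cardiac genes Nppa, Nppb, Myl7 and Mybpc3 were at 0 in every library.

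The level of skeletal muscle RNA was measured by a muscle score, the mean log2(normalized count + 1) of 40 contractile and metabolic muscle genes, none of which is a pump, regulator or ryanodine receptor. It was 9.85, 7.53, 4.00 and 7.58 in the WT libraries, and 7.03 (unnumbered), 2.65, 2.20 and 4.80 in the Cd36KO libraries. The 40 genes held 3.56% of all counts in WT replicate 1 and 0.0210% in Cd36KO replicate 3. All 40 were detected. The score was 3.07 lower in Cd36KO on average, but the groups overlapped and an exact two-sided permutation test gave p = 0.143 (0.286 adjusted over 10 marker scores; the smallest p this design allows is 0.0286). The fast and slow fibre scores gave differences of -3.50 and -2.47 between Cd36KO and WT (exact permutation p = 0.143 for each).

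Ranked by the muscle score, the 8 libraries stood in exactly the order of Atp2a1. The order for Ryr1 differed only in 2 swaps of neighbours. Atp2a2 shared its top library with the score but put Cd36KO replicate 3, the library of lowest score, in 4th place, and Atp2a3 put the highest muscle library in 7th. Because the score is built from the same libraries and the same size factors, these orders are descriptions.

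**Figure D2:**
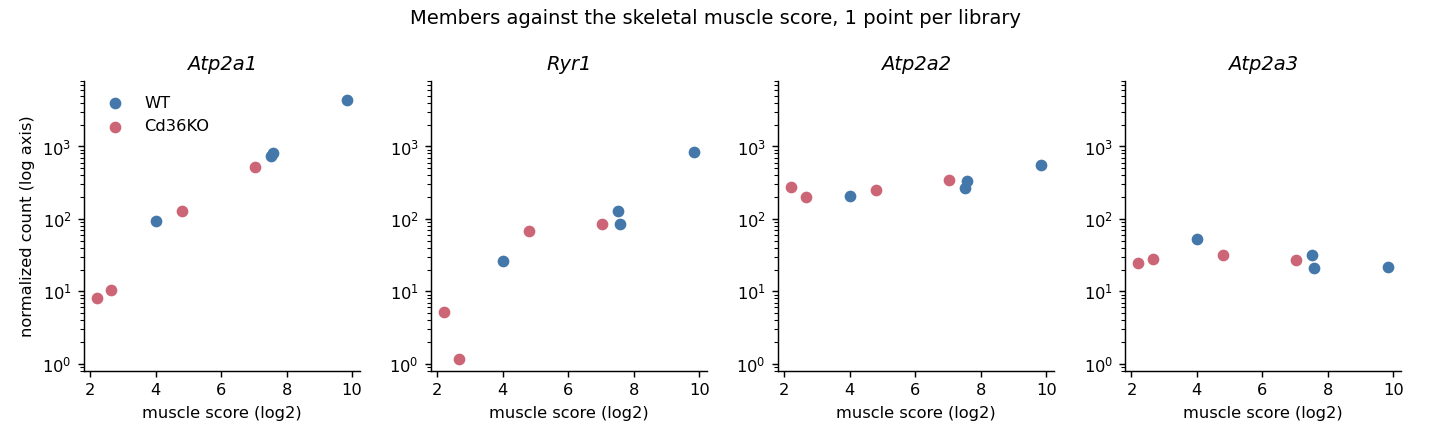
Normalized count (log axis) of Atp2a1, Ryr1, Atp2a2 and Atp2a3 against the muscle score in log2 units, with 1 point per library. Atp2a1 and Ryr1 climb with the score in both genotypes, while Atp2a2 stays between 198 and 555 and Atp2a3 between 20.8 and 52.9.

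The isoforms were separated by the slope of each gene on the muscle score, in a DESeq2 fit that also held genotype. A slope of 1 means that the gene doubled for each doubling of the muscle genes. Atp2a1 had a slope of 1.05 with a standard error of 0.07 (DESeq2 adjusted p = 2.67e-47) and Ryr1 one of 0.91 with a standard error of 0.19 (adjusted p = 0.000226). Both rose with the score, beside 0.652% of the 13960 genes tested. The edgeR quasi-likelihood test gave 1.05 and 0.89, with adjusted p of 2.66e-07 and 0.000229, beside 0.554% of 9755 genes. Ryr1 rested partly on WT replicate 1, without which its slope was 0.83 with a DESeq2 adjusted p of 0.0697, whereas Atp2a1 kept a slope of 1.06.

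Atp2a2 had a slope of 0.17 with a 95% interval of 0.06 to 0.28 (DESeq2 adjusted p = 0.159), and Atp2a3 one of -0.12 with an interval of -0.31 to 0.06 (adjusted p = 1.0). The intervals of these pumps did not reach the range of Atp2a1, which was 0.91 to 1.19. The Atp2a2 slope passed the threshold in 1 setting, without Cd36KO replicate 3, at 0.22 (adjusted p = 0.0242). Sln had a slope of 0.75 with a standard error of 0.37 (adjusted p = 1.0), on 34 counts in all.

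A straight line through the 8 libraries on the linear scale gave the count expected with no muscle transcripts. For Atp2a2 the intercept was 242 ± 17.3 normalized counts (SE), or 79.3% of its mean, with a rise of 3.29 for every 1000 normalized contractile counts. Without WT replicate 1 the intercept was 232 ± 23.8, or 86.2% of the mean. For Atp2a1 it was -28.2 ± 14.9 with a rise of 45.2 per 1000, and for Ryr1 -9.39 ± 15.1 with a rise of 8.59 per 1000. Without WT replicate 1, Atp2a1 had -8.03 ± 16.1 and 42.4 per 1000, whereas Ryr1 had 15.8 ± 12.7, or 27.7% of its mean, and 5.16 per 1000. Atp2a3 had an intercept of 32.1 ± 4.24 and a slope close in size to its standard error (-0.124 ± 0.118 per 1000). In both fits most of the mean Atp2a2 count was the intercept, whereas that of Atp2a1 was small beside its mean (-3.37% and, without WT replicate 1, -2.43%), with an error in the latter fit that included 0.

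Set against the contractile counts themselves, Atp2a1 held 45.0, 40.4, 56.8 and 44.3 raw counts per 1000 contractile counts in the WT libraries. It held 40.1 in the unnumbered Cd36KO library and 39.4 in Cd36KO replicate 4, but 15.7 and 12.3 in Cd36KO replicates 2 and 3, which rest on only 9 and 8 counts of Atp2a1. In these 2 libraries the light chain gene Myl1, whose slope on the score was 0.43, held 245 of 574 and 298 of 649 contractile counts, against 3212 of 107862 in WT replicate 1. Without Myl1 in the contractile counts, a choice made after the values were seen, Atp2a1 held 27.4 and 22.8 per 1000 in these libraries, still below the 42.9 to 70.6 of the other 6. The same ratio for Atp2a2 ran from 5.70 in WT replicate 1 to 419 in Cd36KO replicate 3. Ryr1 ran from 1.74 to 20.8.

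The most abundant pump transcript differed between libraries. Per kilobase of exon, Atp2a1 made up 93.0%, 81.0%, 37.5% and 80.0% of pump counts in the WT libraries. In Cd36KO it made up 70.9% (unnumbered), 7.31%, 4.46% and 43.6%. Atp2a2 was the most abundant pump in WT replicate 3 and in Cd36KO replicates 2, 3 and 4, with 48.4%, 79.9%, 86.7% and 49.2%, and Atp2a1 was in the other 4 libraries. Atp2a3 held 0.302% to 14.1%. The kit is named as digital mRNA-seq and where its reads fall along a transcript is not given in the sources used here, so the division by length may not suit these counts. On raw counts the same pump led in every library, and Atp2a1 made up 88.4% (Wilson 95% interval 87.5% to 89.2%) in WT replicate 1 and 2.63% (1.34% to 5.11%) in Cd36KO replicate 3.

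**Figure D3:**
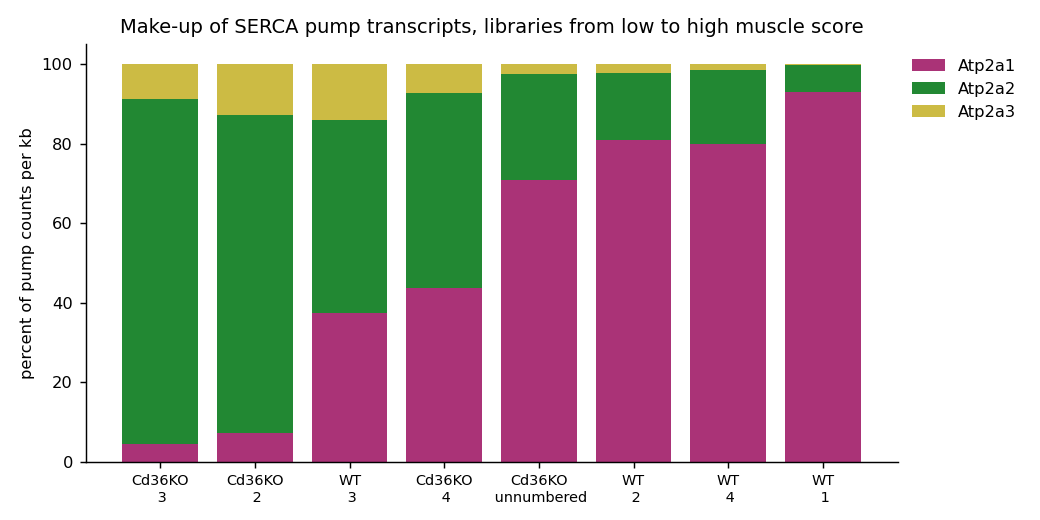
Share of the 3 SERCA pump transcripts, in percent of pump counts per kilobase of exon, with 1 bar per library ordered from low to high muscle score. The share of Atp2a1 grows from 4.46% in Cd36KO replicate 3 to 93.0% in WT replicate 1, while that of Atp2a2 falls from 86.7% to 6.73%.

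Among release channels, Ryr1 had a mean of 7.11 normalized counts per kilobase of exon, and Ryr2 and Ryr3 had 0.0322 and 0.00595. The IP3 receptors release calcium from the same store in most cells. Itpr2 ran from 83.2 to 188 normalized counts per kilobase over the 8 libraries, against 0.0527 to 38.6 for Ryr1, and was the higher of this pair in every library. Itpr2 had a slope on the muscle score of -0.06 with a standard error of 0.05. Itpr1 ran from 10.3 to 18.2 per kilobase and exceeded Ryr1 in every library but WT replicate 1. Itpr3 ran from 0.254 to 1.70 per kilobase and exceeded Ryr1 in Cd36KO replicates 2 and 3 alone.

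The genes whose levels were most like each member were found over the 8 libraries. By Pearson correlation of log2(normalized count + 1), among 5527 genes with a mean of at least 50 normalized counts (5528 for Atp2a3), Atp2a1 was most like Klhl31 (r = 0.999), Xirp2 (0.999) and Actn3 (0.998), all skeletal muscle genes. Ryr1 was most like the sarcomere genes Ttn (0.984), Neb (0.973) and Actn3 (0.971). Atp2a2 was most like Ak1 (0.973), an adenylate kinase abundant in muscle, Pde4dip (0.951), also known from muscle, and Exoc5 (0.939). Ak1 and Pde4dip had WT means of 130 and 442 normalized counts and Cd36KO means of 85.3 and 234. Atp2a3 was most like Bcr (0.953), Nrd1 (0.941) and Shoc2 (0.929). Xirp2, Actn3, Ttn and Neb are among the 40 genes of the muscle score. These correlations share libraries and depth and are given as descriptions.

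Between the genotypes, none of the 8 genes passed the threshold, beside 2.95% of 9619 genes tested in DESeq2 and 0.143% of 9793 in edgeR. Only 4 of the 8, Atp2a1, Atp2a2, Atp2a3 and Ryr1, had enough counts for an adjusted p. Of these 4, Atp2a1 and Ryr1 had an unadjusted p under 0.05 in both tests, beside 15.6% of genes tested in DESeq2 and 16.1% in edgeR. None of these 4 had groups that did not overlap, beside 8.65% of genes with a mean of at least 10 normalized counts. Atp2a1 had a log2 fold change of -3.17 with an unadjusted 95% interval of -5.98 to -0.37 (DESeq2 adjusted p = 0.236), and Ryr1 had -2.77 with an interval of -5.49 to -0.05 (adjusted p = 0.307). Both intervals are wide and cover large falls and small ones. Atp2a2 had -0.35 (-0.90 to 0.21, adjusted p = 0.608) and Atp2a3 -0.18 (-0.91 to 0.56, adjusted p = 0.883).

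With the muscle score in the fit, the estimate for Atp2a1 was -0.35 (-1.01 to 0.31, DESeq2 adjusted p = 0.714) and that for Ryr1 was 0.13 (-1.70 to 1.96, adjusted p = 0.973). Atp2a2 moved to 0.25 (-0.30 to 0.80) and Atp2a3 to -0.49 (-1.44 to 0.46), neither past the threshold. None of the 8 was called, beside 2.24% of 8276 genes tested in that fit, and 0 of the 4 tested had an unadjusted p under 0.05 there, beside 13.7% of genes. Without WT replicate 1, the library richest in muscle transcripts, the genotype estimates were -1.72 for Atp2a1, -1.02 for Ryr1 and -0.01 for Atp2a2. Without the unnumbered Cd36KO library, Atp2a1 passed the threshold at -4.94 (DESeq2 adjusted p = 0.0481). Without WT replicate 3, which holds no Sln count, Sln entered the tested genes and passed (adjusted p = 0.0246), but with 0 counts in Cd36KO its fold has no estimate beyond the bound given above. The muscle score moved with genotype to the extent given above, and its part in these estimates beyond this fit was not tested.

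**Figure D4:**
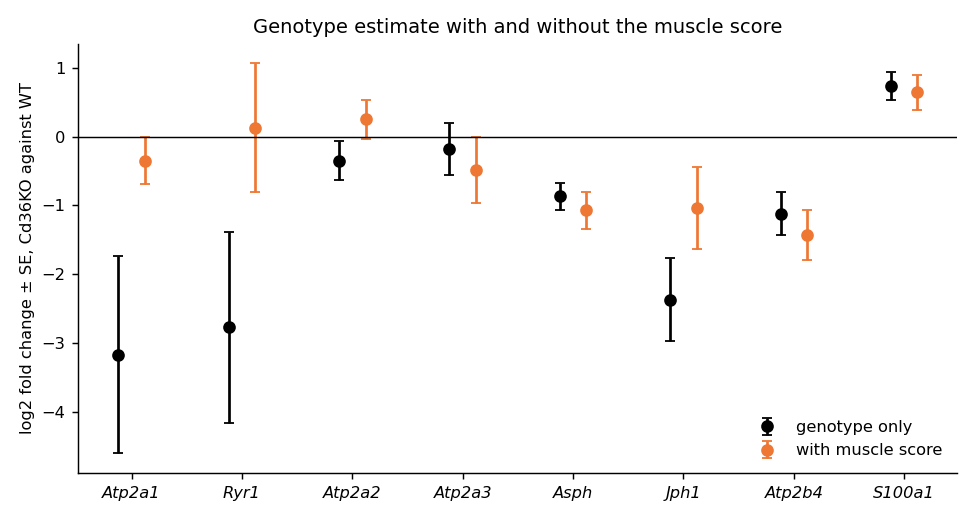
Log2 fold change of Cd36KO against WT with its standard error, for 4 of the 8 genes and for the 4 further calcium cycling genes called in DESeq2, from the fit with genotype only and the fit with the muscle score added. Atp2a1 moves from -3.17 to -0.35, Ryr1 from -2.77 to 0.13 and Jph1 from -2.37 to -1.04. Asph, Atp2b4 and Atp2a3 lie further below 0 with the score added.

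Other genes of calcium handling were taken from 8 lists by role, 87 genes of which 82 were in the table. In DESeq2, 62 of them had an adjusted p for genotype, and 1 rose and 3 fell, which is 6.45% beside 2.95% of all genes. The rise and the falls stand beside 1.42% and 1.53% of all genes in those directions. The median log2 fold change was -0.14, against -0.01 over all genes tested. The edgeR test called none of 61 tested. An unadjusted p under 0.05 was found for 23 of the 61 in edgeR (37.7% beside 16.1% of all genes tested). In DESeq2 it was found for 20 of the 62 (32.3% beside 15.6%). Adding the muscle score to the DESeq2 fit left 11 of 58 list genes with such a p, beside 13.7% of all genes tested. The median log2 fold change of the list genes was then 0.12, against 0.01 over all genes tested.

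Asph, whose locus encodes junctin and the enzyme aspartate beta-hydroxylase, held 260, 259, 294 and 273 normalized counts in WT and 137 (unnumbered), 143, 202 and 112 in Cd36KO. The groups did not overlap, and Asph fell by 0.87 ± 0.20 on the log2 scale (SE; adjusted p = 0.00338 in DESeq2 and 0.0895 in edgeR). It was the one call that held in every DESeq2 fit run, and with the muscle score in the fit it was -1.07 (adjusted p = 0.00844). Gene-level counts do not separate junctin from the enzyme.

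Jph1, which ties the sarcoplasmic reticulum to the surface membrane in skeletal muscle, fell by 2.37 on the log2 scale (DESeq2 adjusted p = 0.0102), from 58.9 ± 59.6 to 11.5 ± 7.43 normalized counts (SD, n = 4 each). With the muscle score its estimate was -1.04 (adjusted p = 0.449), and without WT replicate 1 it was -1.37 (adjusted p = 0.145). Atp2b4, a plasma membrane calcium pump, fell by 1.12 (adjusted p = 0.0218), from 225 ± 109 to 103 ± 10.2, with groups that overlapped, since WT replicate 1 held 106. With the muscle score in the fit Atp2b4 was -1.43 (adjusted p = 0.00857), past the threshold as Asph was, but its adjusted p was 0.177 without WT replicate 3 and 0.121 in edgeR. S100a1, a calcium sensor that binds SERCA2 and ryanodine receptors, rose by 0.73 (adjusted p = 0.0231), from 2166 ± 499 to 3598 ± 631 normalized counts, and with the muscle score in the fit it was 0.64 ± 0.26 (SE; adjusted p = 0.219).

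Some list genes rose with the muscle score, as Atp2a1 did among the pumps. Of 72 list genes tested, 10 rose with the score and 0 fell, 13.9% beside 0.652% of all genes. Leaving out WT replicate 1 gave 6 of 69, and leaving out WT replicate 3 gave 6 of 67. They were picked out after their values were seen. Most are known parts of the skeletal muscle release unit: Trdn and Jsrp1 of the junctional membrane (slopes 1.12 and 1.10), Jph2 (0.49), the voltage sensor subunits Cacna1s, Cacnb1 and Cacng1 (1.22, 0.47 and 1.15), the luminal calcium binders Casq1 and Hrc (1.25 and 1.07), the cation channel Tmem38a (0.63), and the kinase Camk2a (0.72). Trdn, which anchors calsequestrin to the ryanodine receptor, held 1408, 322, 20.0 and 454 normalized counts in WT and 124 (unnumbered), 5.75, 2.05 and 96.1 in Cd36KO. As for Ryr1, WT replicate 1 was highest and Cd36KO replicates 2 and 3 were lowest.

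None of the list genes outside these passed. Among them was Jph1, named above for skeletal muscle, with a slope of 0.36 ± 0.12 (SE, DESeq2 adjusted p = 0.220). Stac3 and Casq2, of the lists of release channel partners and lumen buffers, had slopes of 0.56 and 0.26. The luminal chaperones Hspa5, Hsp90b1 and Calr had slopes of 0.01, -0.04 and -0.05, and means in WT of 2064, 835 and 583 normalized counts. Fkbp1a, which encodes a ryanodine receptor binding protein found in most cells, had a slope of -0.04. No gene passed among the IP3 receptors and leak proteins (6 tested), store-operated entry (6), plasma membrane and Golgi export (5) or mitochondrial calcium (12). Store-operated entry, by which STIM sensors refill the store from outside, was represented by Saraf, Stim1 and Orai3, with WT means of 323, 334 and 85.5 and genotype estimates of 0.52, -0.27 and 0.46, none past the threshold. The micropeptide gene Mrln, a muscle inhibitor of SERCA, had a slope of 1.05 with a standard error of 0.31 (DESeq2 adjusted p = 0.0762) on a mean of 3.90 normalized counts.

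**Figure D5:**
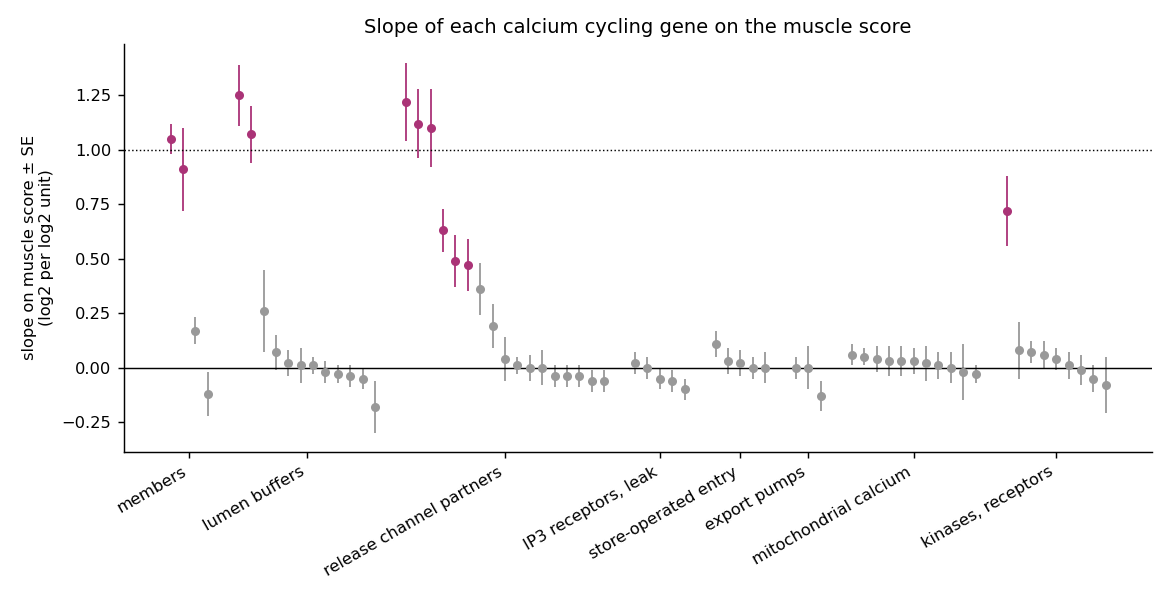
Slope on the muscle score with its standard error, in log2 units per log2 unit of the score, for genes with a mean of at least 10 normalized counts and an adjusted p, by role. Coloured points passed 0.05 in DESeq2 and grey ones did not, the dotted line marks a slope of 1, and the first 4 points are Atp2a1, Ryr1, Atp2a2 and Atp2a3 at 1.05, 0.91, 0.17 and -0.12.

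Counting can mix overlapping genes where the strand setting is not given. Atp2a1 shares exon bases with Rabep2 on the other strand, which held 115 counts over all libraries, against 4857 for Atp2a1 in WT replicate 1 alone. In the libraries where Atp2a1 held 8 or 9 counts such reads could matter. Pln overlaps Cep85l (569 counts) and Ryr3 overlaps Aven (323 counts) in the same way, so the few counts of Pln and Ryr3 are uncertain. Of 89929 windows of 75 bases, the read length, in the transcripts of the 8 genes, 0 were shared between these genes.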

How the data were processed

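RNA-seq was made from 8 BAT libraries by a service for digital mRNA-seq (single-end, 75 cycles). The study's methods say that the authors used bbduk for trimming, STAR for alignment to mm10 and HTSeq for counting, whereas the submitters' processing notes name Trimmomatic and HISAT2, besides DESeq2. The deposited counts are raw whole numbers for each gene. Strandedness and the handling of molecular identifiers are not given in the sources used here. The authors also deposited log2 values, which equal log2(normalized count + 1) and served only an alternative.

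Of 31053 identifiers, 30934 matched GENCODE M21 (GRCm38), and the 119 others held 3959 counts. The genes and lists were chosen with earlier results of these data known. Groups came from the sample titles and genotype labels. The labels tie no library to a mouse, and the study's legends give separate mice, in the number of libraries. The lowest chi-square per degree of freedom between libraries was 6.43, above sampling noise.

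DESeq2 1.42.0 in R 4.3.3 (Wald test, Benjamini-Hochberg adjustment, threshold 0.05) was fitted to all genes with genotype, and again with the muscle score added. Normalized counts are counts over the size factor, and fold changes are unshrunken. The muscle score and list scores used a pseudocount of 1. List scores were compared by exact permutation over 70 arrangements (SciPy 1.17.1). The 40 score genes were left out of counts of muscle calls. Alternatives were edgeR 4.0.16, TMM factors, limma 3.58.1 on the log2 values, 2 filters, other score definitions, the replicate block and leaving out each library. Wilson intervals and floors cover counting error only, and intervals of fitted changes and slopes also the spread between libraries. Scripts were tested on simulated counts. RefSeq promoters matched 5 of the 8 genes. Named genes are the 8, list genes past the threshold, otherwise the 3 of highest mean per list, the 3 most similar genes per member, and the 2 of highest mean per marker list; others were chosen after their values were seen, and some genes the rule names are not reported here. Figures were drawn with matplotlib 3.10.9.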

Additional observations from a re-analysis of the deposited data

Results flagged for a closer look

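The white fat score of WT replicate 1, the mean log2(normalized count + 1) of 9 white fat genes, was 4.97, whereas the other 3 WT libraries lay between 6.61 and 6.88. It was marked because the gap to the nearest library was 0.856 of the group's whole range. Of 28 groups examined in this way, about 1 in 20 would be marked by chance, or 1.4. WT replicate 1 is also the library with the highest muscle score and the most Atp2a1, Ryr1 and Sln. Its white fat score lay just above the Cd36KO range of 4.04 to 4.89, and the relation of the white fat and muscle scores was not tested.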

How the results depend on the processing

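The slopes on the muscle score kept their direction for Atp2a1, Ryr1, Atp2a2 and Atp2a3 in every alternative run. The genotype estimate turned to 0.25 for Atp2a2 and 0.13 for Ryr1 with the muscle score as covariate, and for Atp2a3 it ran from -0.33 to 0.17 on leaving out 1 library, the latter without WT replicate 3. The genotype calls over all genes numbered 284, and 14 with edgeR, 171 with independent filtering off, 185 with the muscle score, 8 with limma on the log2 values, and 69 to 507 on leaving out 1 library; the cause was not tested. Among the 8 genes the calls were 0, and 0 to 1 on leaving out 1 library. In the calcium lists 1 gene rose, against 0 with edgeR, the muscle score, limma, the replicate block and its 6 libraries without the block, 2 with TMM factors and 0 to 6 on leaving out 1 library. In those lists 3 fell, against 0 with edgeR and limma, 6 with the block and 1 to 4 on leaving out 1 library. Slopes passed for 91 genes, 54 with edgeR and 143 without the genotype term. Among the 8 genes 2 passed, and 1 to 3 on leaving out 1 library, the lowest without WT replicate 1. Without the genotype term Sln was the third.

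The pairing of replicate numbers 2, 3 and 4 was not borne out: deviations from the group means correlated at -0.127, 0.422 and 0.141. With the replicate block, 3 pairs in 6 libraries, 1 of the 8 genes was called, Atp2a1 at -4.02 (DESeq2 adjusted p = 0.00148), against -3.49 (0.234) in the same libraries without it; its calls over all genes were 219.

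The total counts per library left Pln, Ryr2 and Ryr3 near the floor of 3 counts. With 4 libraries a group, the genotype intervals of Atp2a1 and Ryr1 span several log2 units.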

Other observations

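None of the 10 marker scores passed 0.05 for genotype after adjustment. A single score at the smallest p this design allows, 0.0286, becomes 0.286 over 10 scores. It could not pass alone, so no conclusion is drawn from this outcome. The white fat score was lower in Cd36KO by 1.77 (4.56 ± 0.38 against 6.33 ± 0.91, SD, n = 4 each), at p = 0.0286 in the exact permutation test and 0.286 adjusted over 10 scores. In DESeq2, 5 of the 9 white fat genes in the table fell and 0 rose, beside 1.53% of all genes lower, among them Nnat, an endoplasmic reticulum proteolipid described as a regulator of SERCA. It went from 1962 ± 1143 normalized counts in WT to 327 ± 72.5 in Cd36KO (SD, n = 4 each), a log2 change of -2.59 (adjusted p = 0.00228), and its groups overlapped, since WT replicate 1 held 377 against 245 to 403 in Cd36KO. Its slope on the muscle score was -0.18 with a standard error of 0.14. The white fat score's part in the results on the pumps was not tested. Of 12 brown adipocyte genes, 4 rose in DESeq2, beside 1.42% of all genes higher, among them Cidea at 0.97 (adjusted p = 5.92e-06 in DESeq2 and 0.0749 in edgeR). None of these 4 passed in edgeR, where their adjusted p ran from 0.0749 to 0.196. Fabp4 had -0.73 (DESeq2 adjusted p = 0.0762), and the brown adipocyte score differed by 0.26 (exact permutation p = 0.0571, 0.286 adjusted over 10 scores).

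Smooth muscle, leukocyte, lymphocyte and endothelial scores differed by -0.05, 0.02, 0.28 and 0.05, with exact permutation p of 0.857, 0.943, 0.257 and 0.743. The cardiac score was 0.63 in WT and 0.44 in Cd36KO (exact permutation p = 0.4). Adra1a, the adrenergic receptor that raises cytosolic calcium in brown fat, ran from 201 to 281 normalized counts in WT and from 302 to 331 in Cd36KO. Its groups did not overlap, beside 8.65% of genes with a mean of at least 10 normalized counts. The adjusted p was 0.137 in DESeq2 and 0.217 in edgeR.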
